A study of Homo sapiens with 42 samples.

Results

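The chromatin around 6 human genes of the mesenchymal programme was examined in ATAC-seq peak lists: the transcription factor genes ZEB1, ZEB2, SNAI2, TWIST1 and PRRX1, and VIM, the gene of the intermediate filament protein vimentin. The genes were listed by name, and a peak belonged to a locus when its summit lay inside the gene or within 100 kb of it in the RefSeq annotation of GRCh38.p14. All 6 symbols were found among the 19974 protein-coding genes on chromosomes 1 to 22 and X. The lists came from 7 established human cancer cell lines: 92-1 (uveal melanoma), A375 (melanoma), RD (rhabdomyosarcoma), MV411 (acute myeloid leukaemia), 22RV1 (prostate adenocarcinoma), DU4475 (breast carcinoma) and HCT116 (colorectal adenocarcinoma). All lines were labelled wild type in genotype. Each line was kept for 4 h with DMSO, the negative control, or with FHT-1015, an inhibitor of both ATPases SMARCA4 and SMARCA2. With 3 biological replicates per group there were 42 samples in 14 groups, 21 of them with DMSO. ATAC-seq marks open chromatin by inserting sequencing adapters with a transposase where DNA is accessible.

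The genes lay on 5 chromosomes. ZEB1 spanned chr10:31318417-31529804, ZEB2 chr2:144384081-144520119, SNAI2 chr8:48917598-48921429, TWIST1 chr7:19113047-19117636, PRRX1 chr1:170662768-170739421 and VIM chr10:17228241-17237593. The windows also held other protein-coding genes: LOC124906892 beside ZEB1, QTMAN beside ZEB2, FERD3L beside TWIST1, and CUBN, TRDMT1 and ST8SIA6 beside VIM. The SNAI2 and PRRX1 windows held none.

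SMARCA4 and SMARCA2 are the alternative motors of the BAF (SWI/SNF) complexes, which use ATP to move or evict nucleosomes. ZEB1, ZEB2, SNAI2 and TWIST1 are the classic drivers of the epithelial-mesenchymal transition: the ZEB and SNAI2 zinc finger proteins repress epithelial genes such as CDH1 through E-box sequences, and TWIST1 is a basic helix-loop-helix factor. PRRX1 is a homeobox factor of limb and craniofacial mesenchyme that can also drive this transition. Melanocytic, muscle and blood cells use some of these factors in their own development, so the genes are not confined to carcinoma biology.

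Promoter sequences were found for 4 of the 6 genes, ZEB1, ZEB2, PRRX1 and VIM. They are shown because the peaks at these gene starts separated the lines, and because the position of the open region relative to the start differed between the genes. Each run is the 250 bases before the annotated start (for ZEB1 the outermost of 7 starts), 5′ to 3′ on the strand of the gene, from RefSeq (GRCh38.p14). Capitals mark matches to one of 6 motifs searched on both strands: the E-box CACCTG, the second E-box form CAGCTG and the third form CACGTG, the AP-1 motif, spelled TGACTCA, the GC box, spelled GGGCGG, and the RUNX core, spelled TGTGGT.
ZEB1, chr10:31318167-31318416, plus strand: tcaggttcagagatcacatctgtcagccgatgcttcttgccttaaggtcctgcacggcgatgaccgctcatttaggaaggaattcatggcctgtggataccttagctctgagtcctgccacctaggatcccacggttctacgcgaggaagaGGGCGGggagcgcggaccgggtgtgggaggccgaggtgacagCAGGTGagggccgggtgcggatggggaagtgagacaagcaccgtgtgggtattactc
ZEB2, chr2:144520120-144520369, minus strand: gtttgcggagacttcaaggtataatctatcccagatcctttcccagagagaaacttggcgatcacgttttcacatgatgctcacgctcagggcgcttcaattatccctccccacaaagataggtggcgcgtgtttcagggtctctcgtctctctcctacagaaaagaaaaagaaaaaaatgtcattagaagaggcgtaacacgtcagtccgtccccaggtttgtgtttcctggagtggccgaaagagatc
PRRX1, chr1:170663881-170664130, plus strand: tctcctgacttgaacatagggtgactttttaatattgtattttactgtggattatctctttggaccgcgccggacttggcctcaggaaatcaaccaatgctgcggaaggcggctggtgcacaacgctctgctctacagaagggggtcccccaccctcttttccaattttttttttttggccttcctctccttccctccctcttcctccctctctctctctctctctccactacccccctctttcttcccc
VIM, chr10:17227991-17228240, plus strand: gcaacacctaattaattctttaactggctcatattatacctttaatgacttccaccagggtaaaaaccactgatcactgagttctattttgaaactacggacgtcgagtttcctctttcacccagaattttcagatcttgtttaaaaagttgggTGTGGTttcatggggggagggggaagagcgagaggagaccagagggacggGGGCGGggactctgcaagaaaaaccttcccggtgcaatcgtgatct

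The ZEB1 run held 1 match to CACCTG, the E-box to which ZEB and SNAI proteins are known to bind, and 1 GC box. Of 34789 promoter windows of this length, 17.5% held CACCTG and 42.6% held GGGCGG. The VIM run held 1 GC box and 1 match to TGTGGT, which 10.99% of the windows held. The ZEB2 and PRRX1 runs held no match to any of the 6 motifs. CAGCTG was in 13.97% of all windows, the form CACGTG in 6.33% and the AP-1 motif in 4.19%, and none of these was in the 4 runs. CG dinucleotides numbered 15 in the ZEB1 run, 12 in ZEB2, 8 in VIM and 6 in PRRX1, beside a median of 11 over all windows. A match describes letters only and is not a bound site.

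Peaks were counted in each locus in 2 ways. Strict peaks are those whose q-value, as deposited by the authors, reached a −log10 of at least 5. Strict counts are not scaled to the length of the strict list and can move with it. That length ranged from 1412 to 121774 peaks per sample. Its mean with FHT-1015 lay between 22.4% (92-1) and 94.6% (HCT116) of that with DMSO. The second count took the 20000 strongest peaks of every sample, so that all lists had equal length and a locus could only gain or lose relative to the rest of the genome. The lists carry no read depth. Replicates 2 and 3 of 92-1 with FHT-1015 held only 2037 and 1412 strict peaks, and their 20000 strongest peaks therefore reach below the strict threshold. To a lesser degree so do those of 92-1 with DMSO, replicate 3 (14266 strict peaks), RD with FHT-1015, replicate 2 (13760), and HCT116 with FHT-1015, replicate 3 (17552). Among marker loci, SOX10 and MITF had the highest mean number of the 20000 strongest peaks in A375, TYR had peaks in 92-1 and A375 only, and MYOD1 and PAX3 were highest in RD. PTPRC was highest in MV411 and CDX1 in HCT116. Other markers went against the labels: MYF5 had no such peak in RD with DMSO and GATA3 none in DU4475. The myeloid factor gene SPI1 was highest in A375 and the epithelial gene GRHL2 in 92-1, and CDH1 was as high in RD as in DU4475. Peak numbers at single marker loci therefore matched the labelled tissue only in part.

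In DMSO the 6 loci were open to different degrees in different lines. ZEB2 had its highest strict counts in the leukaemia line MV411, with 25, 21 and 25 peaks. In every other line the ZEB2 locus held between 0 and 13. The groups of MV411 and of each other line did not overlap. PRRX1 had 11, 18 and 14 strict peaks in 22RV1, 18, 14 and 10 in DU4475 and 16, 14 and 8 in A375, which overlapped. HCT116, with 1, 2 and 2, lay below those 3 lines in each of its samples. ZEB1 had 11, 8 and 11 strict peaks in DU4475, 9, 14 and 9 in 22RV1 and 11, 9 and 6 in MV411. In 92-1, RD and HCT116 the ZEB1 locus held 1 to 4. TWIST1 had the fewest: 7, 9 and 5 in 22RV1, 6, 5 and 6 in MV411, and 0 to 4 in each sample of the other lines. SNAI2 ranged from 3 in each HCT116 sample to 12 in 1 sample of 92-1, whose other samples had 5 and 5. VIM had 13, 15 and 11 in MV411 and 2, 3 and 1 in HCT116, with the other lines between 3 and 11. These counts are not scaled to list length: the mean strict list with DMSO was longest in MV411 (112752 peaks) and shortest in HCT116 (24275). MV411 had the highest mean strict count at ZEB2, SNAI2 and VIM, but not at PRRX1, ZEB1 or TWIST1. There 22RV1 averaged 14.3, 10.7 and 7, beside 10, 8.67 and 5.67 in MV411. Among the 20000 strongest peaks MV411 did not lead at ZEB2, with a mean of 4 beside 4.33 in RD. This order came from several summits in 1 peak interval. With each interval counted once, MV411 had 4, 4 and 4 at ZEB2 and RD 2, 2 and 2. ZEB1 averaged 1 in MV411 and 4 in DU4475. SNAI2 averaged 2.67 in HCT116 and 0.333 in MV411. At VIM HCT116 was still lowest, at 1.67, but with intervals counted once it had 2, 2 and 1 beside 1, 1 and 1 in DU4475.

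**Figure D1:**
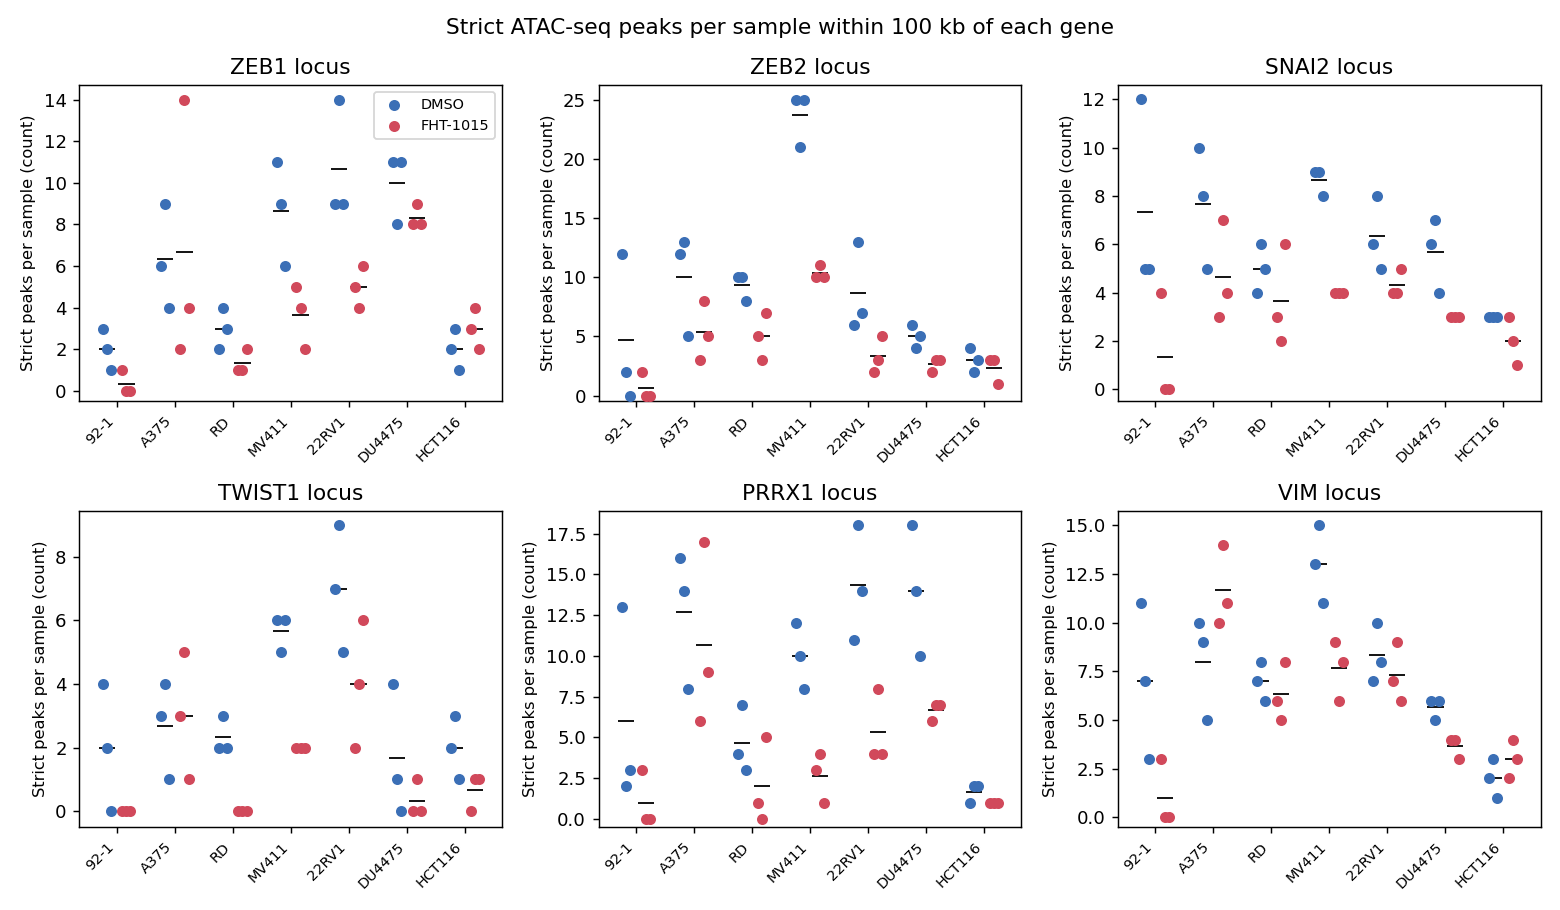
Strict peaks (count, −log10 q of at least 5) within 100 kb of each gene. Points are the 3 replicates of a group, DMSO in blue and FHT-1015 in red, and the black line is their mean. At ZEB2, MV411 with DMSO stands at 21 to 25 and with FHT-1015 at 10 or 11. At VIM, the A375 groups overlap.

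An F-test across the 7 lines in DMSO (limma on log2(peaks + 1) in the 20000 strongest peaks, Benjamini-Hochberg adjusted) called all 5 loci that passed the filter of a mean of at least 1 peak. The adjusted p was 1.5e-04 for ZEB1, 8.3e-05 for ZEB2, 4.6e-07 for SNAI2, 3.1e-06 for PRRX1 and 0.0083 for VIM. This test called 91.8% of the 17274 loci tested, so a difference between lines was the rule and not a property of these genes. TWIST1 failed the filter. Peak names of 92-1, MV411, 22RV1 and HCT116 carry the word small and those of the other 3 lines do not. The word is not explained in the sources used here, and its part in differences between lines was not tested.

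The contrast that the epithelial-mesenchymal theme implies, the 4 non-carcinoma lines against the 3 carcinoma lines in DMSO, gave no call at these loci, nor at any other (0% of 17274 loci called by limma on the 7 line means, with 904 at an unadjusted p under 0.05). The difference in log2(peaks + 1), non-carcinoma minus carcinoma, was 0.73 ± 0.39 (SE) for VIM and 0.44 ± 0.45 for ZEB2. It was -0.75 ± 0.42 for ZEB1, -0.53 ± 0.53 for PRRX1 and -0.10 ± 0.54 for SNAI2. Adjusted p-values were 0.85 or higher, and the standard errors leave room for large differences. Both 22RV1 and DU4475, carcinoma lines, were among the lines with the most strict peaks at ZEB1 and PRRX1.

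Open regions were then compared base by base. Overlapping strict peaks of all samples were reduced to 500-bp regions, of which 244 of 315190 lay in the 6 loci, and a region was held by a group when all 3 samples had a strict peak overlapping it by at least 100 bp. In DMSO 91 of the 244 were held by at least 1 line: 64 by 1 line, 12 by 2, 7 by 3, 4 by 4, 2 by 6 and 2 by all 7. Of the 91, 28 lay inside 1 of the 6 genes.

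All 4 regions held by 6 or 7 lines sat at neighbouring genes. The region held by all 7 lines in the ZEB1 window, chr10:31603373-31603872, lay 511 bp inside an end of LOC124906892 and 73.8 kb from ZEB1. The one in the VIM window, chr10:17201192-17201691, covered an end of TRDMT1, a tRNA methyltransferase gene, 26.8 kb from VIM. In the ZEB2 window a pair of regions held by 6 lines, chr2:144332143-144332642 and chr2:144332679-144333178, lay at an end of QTMAN, 51.7 and 51.2 kb from ZEB2. At the 6 genes themselves, no region was held by more than 4 lines.

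**Figure D2:**
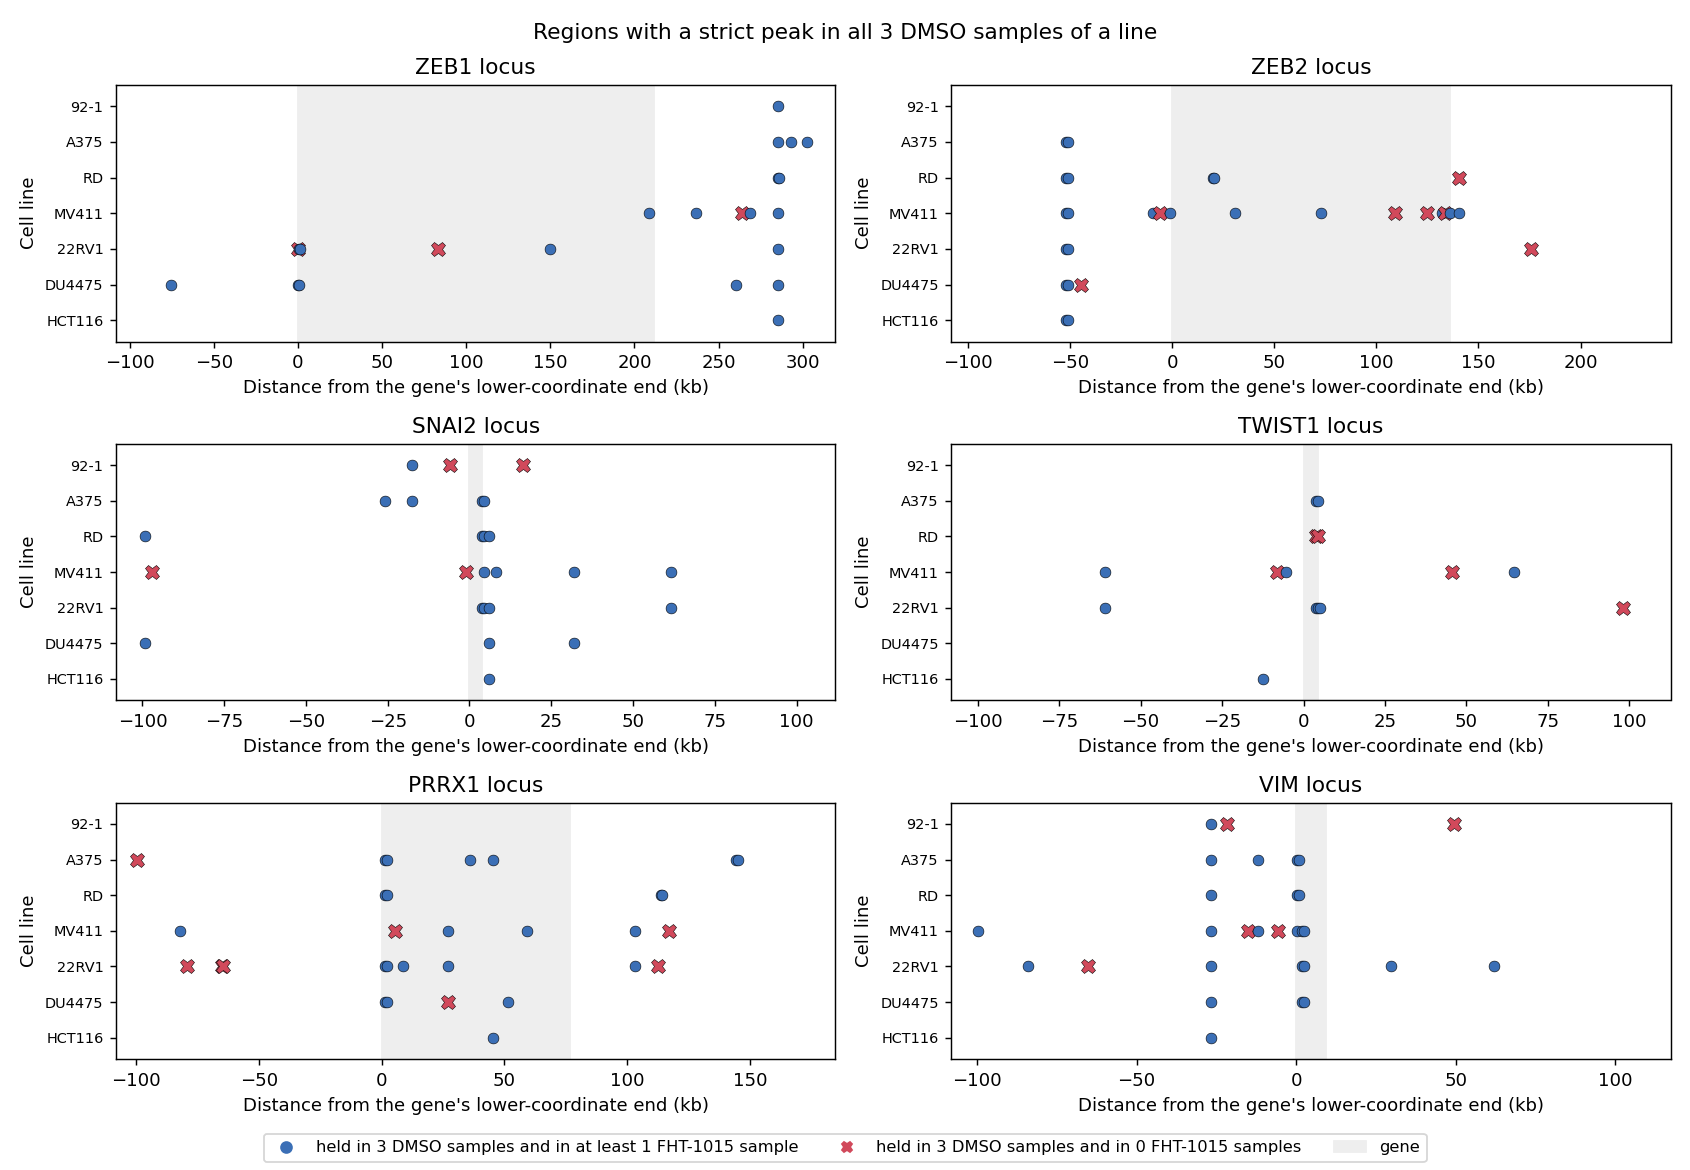
Regions with a strict peak in all 3 DMSO samples of a line, by distance in kb from the end of the gene with the lower coordinate, 1 row per cell line. Blue circles were found in at least 1 FHT-1015 sample of the line, red crosses in 0, and grey marks the gene. The vertical rows of circles far from ZEB1, ZEB2 and VIM are the regions at LOC124906892, QTMAN and TRDMT1.

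At the gene starts each gene had its own set of lines. A strict summit lay within 1 kb of a start (of either gene end for SNAI2 and TWIST1) in 13 of the 21 DMSO samples for ZEB1, 4 for ZEB2, 16 for SNAI2, 10 for TWIST1, 14 for PRRX1 and 13 for VIM. For orientation, the share of 15812 genes with such a summit in all 3 DMSO samples was 19.1% in 92-1 and lay between 40.3% and 64.2% in the other 6 lines.

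The ZEB2 start was open in all 3 DMSO samples of MV411 and in 1 of HCT116, and in no other DMSO sample. The region chr2:144519875-144520374 contains the whole printed ZEB2 run and overlaps the antisense gene ZEB2-AS1. Its strongest peak within 1 kb in MV411 had −log10 q of 13.97, 16.8 and 8.59 with DMSO and 10.8, 6.68 and 5.98 with FHT-1015, in the authors' values, so every sample stayed above the threshold. Further into the MV411 pattern, chr2:144382846-144383345, 0.985 kb outside the other end of ZEB2, and chr2:144456546-144457045, inside the gene, were held in MV411 with DMSO and by no other DMSO sample, and both had a strict peak in all 3 FHT-1015 samples. At the former −log10 q was 160, 111 and 99.9 with DMSO and 46.2, 43.9 and 35.8 with FHT-1015.

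The ZEB1 start was open in all 3 DMSO samples of 22RV1 and DU4475, and in 1 or 2 samples of each other line. The region chr10:31318078-31318577, which contains the printed ZEB1 run and overlaps ZEB1-AS1, was held in both. In 22RV1 it was lost, which here means a strict peak in all 3 DMSO samples and in 0 FHT-1015 samples. Its −log10 q in 22RV1 was 15.1, 20.5 and 19.5 with DMSO, and with FHT-1015 replicate 3 alone listed a peak there, at 3.92. In DU4475 it was found in all 3 FHT-1015 samples. The next region inside the gene, chr10:31318587-31319086, stayed in all 3 FHT-1015 samples of both lines, so every 22RV1 sample had a strict peak at the start.

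The VIM start had strict summits in all 3 DMSO samples of A375, RD and MV411, in 2 of 92-1, in 2 of HCT116, and in none of 22RV1 or DU4475. The peaks lay past the start: chr10:17228363-17228862 and chr10:17228899-17229398, inside VIM and overlapping VIM-AS1, begin after the printed run and contain none of its bases. In 22RV1 and DU4475 a region further into the gene was open. There chr10:17230346-17230845, 2.36 kb past the VIM start, was held with DMSO. MV411 held it as well, together with chr10:17228363-17228862. The inner region was found in all 3 FHT-1015 samples of each of these 3 lines. In DU4475 the −log10 q of the inner region was 12.3, 12.1 and 8.85 with DMSO and 9.26, 9.55 and 9.84 with FHT-1015.

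The PRRX1 start was open in all 3 DMSO samples of A375, RD, 22RV1 and DU4475, in 2 of 92-1, and in none of MV411 or HCT116. The region chr1:170664075-170664574 contains 56 bases of the printed PRRX1 run and extends past the start. The start used lies inside the annotated span of PRRX1, so the printed run does too. Strict peaks within 1 kb of the start remained in all 3 FHT-1015 samples of A375, 22RV1 and DU4475 and in 2 of RD. In RD the strongest −log10 q there was 12.7, 14.7 and 10.8 with DMSO and 5.91, 4.29 and 5.32 with FHT-1015, where replicate 2 fell short of the threshold.

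At SNAI2 a strict summit lay near a gene end in all 3 DMSO samples of A375, RD, MV411 and 22RV1, and in all 3 FHT-1015 samples of the same lines. DU4475 had no peak of any strength within 1 kb of either end in its 6 samples. It held instead, with RD, 22RV1 and HCT116, the region chr8:48923314-48923813, 2.14 kb away and inside the non-coding gene LOC107986942. That region had a strict peak in 12 DMSO and 7 FHT-1015 samples. In 92-1 and A375, the melanoma lines, chr8:48899673-48900172, 17.7 kb from SNAI2, was open in all 3 DMSO samples of each and in no DMSO sample of the other lines, and 1 FHT-1015 sample of each kept a strict peak.

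At TWIST1 the same pair of regions, chr7:19116541-19117040 and chr7:19117204-19117703, near the upper end of the gene, was held in A375, RD and 22RV1 with DMSO and not in MV411, DU4475 or HCT116. In RD both were lost. The strongest −log10 q at the second was 9.78, 11.7 and 7.43 with DMSO, and 1.97, 4.01 and 3.4 with FHT-1015. Peaks were therefore still listed there, below the strict threshold. The authors' fold enrichment of these peaks was 6.12, 5.91 and 4.88 with DMSO and 3.02, 4.39 and 3.68 with FHT-1015. In A375 and 22RV1 the second region was found in all 3 FHT-1015 samples. In RD, 6.04% of gene starts held with DMSO had no strict peak in any FHT-1015 sample.

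With FHT-1015 the strict counts were lower at most loci. The mean over replicates was lower than with DMSO in 37 of the 42 pairs of line and locus and higher in 5. In 16 pairs all 3 FHT-1015 samples lay below all 3 DMSO samples, and in 0 above. Over all loci 27.6% of pairs were fully separated downwards, against which 16 of 42 has to be read. MV411 was separated at each of the 6 loci. DU4475 was separated at ZEB2, SNAI2, PRRX1 and VIM, 22RV1 at ZEB1, ZEB2 and PRRX1, RD at ZEB2 and TWIST1, and 92-1 at SNAI2. A375 and HCT116 had no separated locus. A single comparison of 3 with 3 samples cannot reach an exact two-sided p below 0.1. The background level of the MV411 lists, solved from the authors' fold and p, was 0.4002 to 0.495 with DMSO and 0.260 to 0.270 with FHT-1015. When the lists of each line were thinned to the lowest background among its samples (92-1 left out), MV411 was separated at VIM only. The groups overlapped at its other 5 loci, at ZEB2 with 26, 20 and 26 peaks against 23, 23 and 16. After thinning 10 of 36 pairs were separated downwards, beside 24.8% over all loci, again pooled over lines: ZEB1, ZEB2, TWIST1 and PRRX1 in 22RV1, ZEB2 and SNAI2 in A375, ZEB2 in RD, PRRX1 in DU4475, TWIST1 in HCT116 and VIM in MV411. In 22RV1, RD and A375 the lowest background belonged to a DMSO sample, so every FHT-1015 list of these lines was thinned.

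At ZEB2 in MV411 the 25, 21 and 25 strict peaks became 10, 11 and 10, and in RD 10, 10 and 8 became 5, 3 and 7. At PRRX1 in MV411, 12, 10 and 8 became 3, 4 and 1. In DU4475, 18, 14 and 10 became 6, 7 and 7 at PRRX1, and in 22RV1, 11, 18 and 14 became 4, 8 and 4. At ZEB1, 22RV1 went from 9, 14 and 9 to 5, 4 and 6, while DU4475, with 11, 8 and 11 against 8, 9 and 8, overlapped. At SNAI2 in MV411, 9, 9 and 8 became 4, 4 and 4. At TWIST1, RD went from 2, 3 and 2 to 0 in each sample, and A375 stayed at 3, 4 and 1 against 3, 5 and 1. At VIM, MV411 went from 13, 15 and 11 to 9, 6 and 8. The VIM mean was higher with FHT-1015 in A375, with 10, 9 and 5 strict peaks in DMSO and 10, 14 and 11 with FHT-1015. It was also higher in HCT116, with 2, 3 and 1 against 2, 4 and 3. The groups overlapped in both lines, and neither difference was called.

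Fitted over the 7 lines, strict peaks fell at all 6 loci (limma, log2(peaks + 1), not scaled to the list). The log2 change was -1.09 ± 0.19 (SE) at PRRX1 (adjusted p = 1.6e-05), -0.92 ± 0.18 at TWIST1 (6.8e-05), -0.88 ± 0.19 at ZEB2 (2.5e-04) and -0.83 ± 0.16 at SNAI2 (6.3e-05). It was -0.57 ± 0.16 at ZEB1 (0.0032) and -0.39 ± 0.16 at VIM (0.027). The same fit called 68.4% of 19262 loci lower and none higher, with a median of -0.49 over all loci, so a fall at these genes was part of a decline across the genome. Without 92-1 the VIM value was -0.09 and no longer called (limma adjusted p = 0.44), and the other 5 loci kept their calls. No share of all loci is given for this refit. In the thinned lists 60.6% of loci were called lower. ZEB1, ZEB2, SNAI2, TWIST1 and PRRX1 were again called and VIM was not (-0.13, adjusted p = 0.36).

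Relative to the rest of the genome the loci did not move together. In the 20000 strongest peaks none of the 5 tested loci passed over the 7 lines, while 39.0% of all 17274 loci did, 5478 higher and 1263 lower, and the median of all loci was 0.14. The log2 difference, FHT-1015 minus DMSO, was 0.16 ± 0.11 (SE) for ZEB2 (adjusted p = 0.26), 0.00 ± 0.12 for VIM (0.98) and -0.01 ± 0.12 for SNAI2 (0.95). It was -0.10 ± 0.11 for ZEB1 (0.53) and -0.12 ± 0.13 for PRRX1 (0.52). Without 92-1 the PRRX1 value was -0.37, past the threshold (limma adjusted p = 0.015). The 39.0% belongs to the fit with 92-1 and no share is given for this refit, so the call cannot be read as particular to PRRX1. TWIST1, with a mean below 1 peak in these lists, fell by 0.32 ± 0.11 on the log2 scale in a fit with no filter (limma adjusted p = 0.024). For that fit too no share of all loci is given. Other relative counts gave no call at TWIST1: -0.16 in the 50000 strongest peaks (adjusted p = 0.57), 0.034 in strict peaks scaled to their total (0.88) and 0.098 in all peaks scaled to their total (0.57). Its peaks among the 20000 strongest numbered 1, 1 and 1 in MV411 with DMSO and 0 in each FHT-1015 sample, and in A375 and DU4475 all 12 samples had 0.

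**Figure D3:**
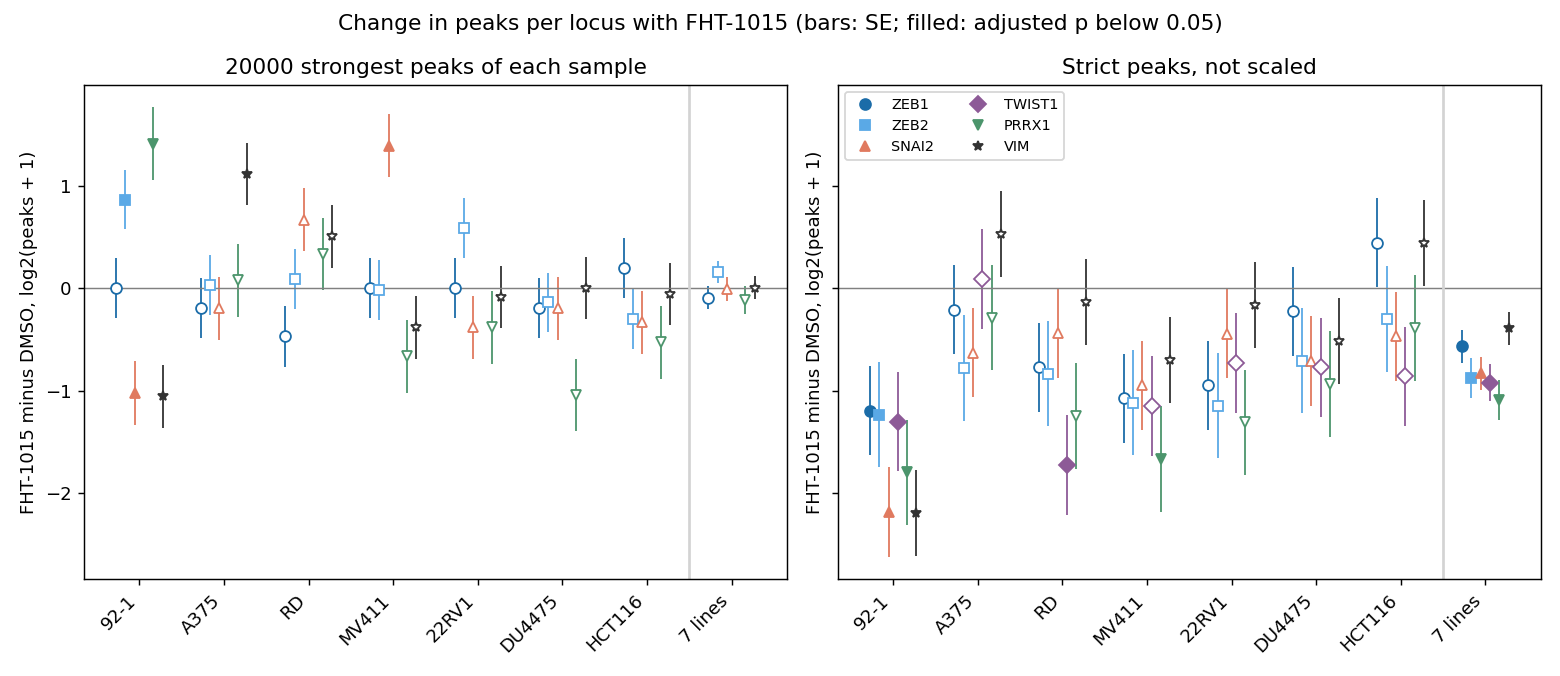
Difference in log2(peaks + 1) between FHT-1015 and DMSO at each locus, per line and over the 7 lines. Bars are standard errors and filled symbols have an adjusted p below 0.05. The left panel counts peaks among the 20000 strongest of a sample, the right panel strict peaks. Over the 7 lines all 6 loci are filled on the right and none on the left, and 92-1 differs in direction between the panels at ZEB2 and PRRX1.

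Line by line, the equal-length lists gave 2 calls outside 92-1. VIM rose in A375, from 3, 3 and 4 peaks to 9, 8 and 8 (log2 1.11 ± 0.31, limma adjusted p = 0.016), where 9.28% of loci were called in either direction. Within 5 kb of VIM the counts were 2, 2 and 2 against 7, 6 and 6. Much of this came from several summits in 1 interval: with each interval counted once the samples had 2, 2 and 3 against 3, 4 and 5 (log2 0.58, adjusted p = 0.24). At other list lengths the rise did not pass, with 0.74 in the 10000 strongest peaks (adjusted p = 0.12) and 0.86 in the 50000 strongest (0.24). With strict peaks the difference was 0.53 and not called, and with strict intervals -0.11. SNAI2 rose in MV411, from 0, 1 and 0 to 2, 2 and 3 (1.39 ± 0.31, limma adjusted p = 0.0010), where 23.9% of loci were called. The call changed with list length and window: the value was 0 in the 10000 strongest peaks (adjusted p = 1), 0.27 in the 50000 strongest (0.74), 0.86 within 50 kb (0.059) and 0.67 within 5 kb (0.12). Its strict peaks in the same samples went the other way, from 9, 9 and 8 to 4, 4 and 4 (-0.95, adjusted p = 0.13, and 0.044 when the 2 shallow samples of 92-1 were left out of the fit or 0.013 without 92-1).

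In 92-1 the direction depended on the list. Among the 20000 strongest peaks ZEB2 rose (0.86, adjusted p = 0.021), as did PRRX1 (1.41, 0.0024), and SNAI2 (-1.02, 0.010) and VIM (-1.06, 0.0074) fell, with 31.6% of loci called. The PRRX1 counts were 2, 1 and 3 with DMSO and 3, 13 and 7 with FHT-1015, the 13 and 7 in the lists with 2037 and 1412 strict peaks. In strict peaks all 6 loci fell in 92-1, beside 59.3% of all loci. At PRRX1 those counts were 13, 2 and 3 against 3, 0 and 0. Without these 2 shallow samples none of the 4 equal-length calls remained (adjusted p between 0.41 and 0.81), nor did the strict calls at all 6 loci (between 0.64 and 0.97), the lone FHT-1015 sample being assumed to vary like the other groups.

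With the 100 kb window no other line had a call among the 5 loci in the equal-length lists, where 1.52% of loci were called in RD, 7.46% in 22RV1, 0.255% in HCT116 and 0% in DU4475 (352 at an unadjusted p under 0.05). The lowest unadjusted p was that of PRRX1 in DU4475, 0.0054, with 6, 4 and 3 against 1, 3 and 1 peaks. With narrower windows SNAI2 was called higher in RD, by 1.39 within 50 kb (limma adjusted p = 0.017) and within 5 kb (0.0045), beside 0.67 within 100 kb (0.37). In both narrower windows the counts were only 0, 1 and 0 with DMSO and 2, 2 and 3 with FHT-1015. The 1.52% belongs to the 100 kb window, and no share is given for the narrower ones. In strict peaks TWIST1 fell in RD (-1.72 ± 0.48, adjusted p = 0.011), where 22.4% of loci were called lower. With strict intervals counted once it was -1 and not called (0.12). PRRX1 fell in MV411 (-1.67 ± 0.51, adjusted p = 0.043), where 6.43% were. No locus of the 6 was called in strict peaks in A375, 22RV1, DU4475 or HCT116, where 0.145%, 0.410%, 0.436% and 0% of loci were called lower (in HCT116, 283 loci had an unadjusted p under 0.05). Without 92-1 in the strict fit the values stayed but more passed: all 6 loci in MV411 (limma adjusted p from 0.0052 at PRRX1 to 0.038 at VIM), ZEB2 (0.040), TWIST1 (0.0026) and PRRX1 (0.017) in RD, and ZEB2 in 22RV1 (-1.15, 0.036). The shares of all loci given above belong to the fit with 92-1. No share is given for the refit, so its calls cannot be read as particular to these loci.

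Thinning changed which lines had calls. In MV411 no locus was called lower after thinning (0% of 19654, with 600 at an unadjusted p under 0.05 in limma), and PRRX1 was -0.47 there (adjusted p = 1). In 22RV1 ZEB2 fell by 1.63 on the log2 scale (0.0068) and PRRX1 by 1.49 (0.033), where 15.1% of loci were called lower. In A375 ZEB2 fell by 1.16 (0.041), where 8.55% were. In RD all loci but VIM were called lower, with adjusted p from 0.0017 at ZEB2 to 0.021 at TWIST1, where 59.6% of all loci were. Thinning was not equal between the treatments in these lines. In 22RV1 every FHT-1015 list had a higher background than every DMSO list and was thinned more. In RD and A375 the backgrounds overlapped, and the highest belonged to an FHT-1015 sample. How much of the calls in 22RV1, A375 and RD came from this was not tested. No member was called in DU4475, with 0.672% of loci called, or in HCT116, with 0% (954 at an unadjusted p under 0.05).

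The effect of FHT-1015 on equal-length counts differed between the lines at SNAI2, PRRX1 and VIM (F-test over the 7 effects, adjusted p = 0.0027, 0.0081 and 0.010), as it did at 20.1% of all loci. Without 92-1, 25.0% of loci were called, SNAI2 (0.0021) and VIM (0.040) among them and PRRX1 not (0.10).

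Regions of the 6 loci were lost in some lines and gained in none. Summed over lines, 32 of 151 held regions were lost (21.2%), beside 22.5% over all strict regions. None of 82 regions held with FHT-1015 was absent from all 3 DMSO samples of its line, beside 0.586% over all regions. Each of the 32 was lost in 1 line only. MV411 lost 13 of 43, where 32.7% of all its held regions were lost. The count was 9 of 34 in 22RV1 (26.4%), 4 of 7 in 92-1 (40.3%) and 3 of 20 in RD (20.8%). It was 2 of 18 in DU4475 (6.65%), 1 of 22 in A375 (7.49%) and 0 of 7 in HCT116 (5.85%). The share was highest in 92-1 and lowest in HCT116 both at the 6 loci and over all regions.

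**Figure D4:**
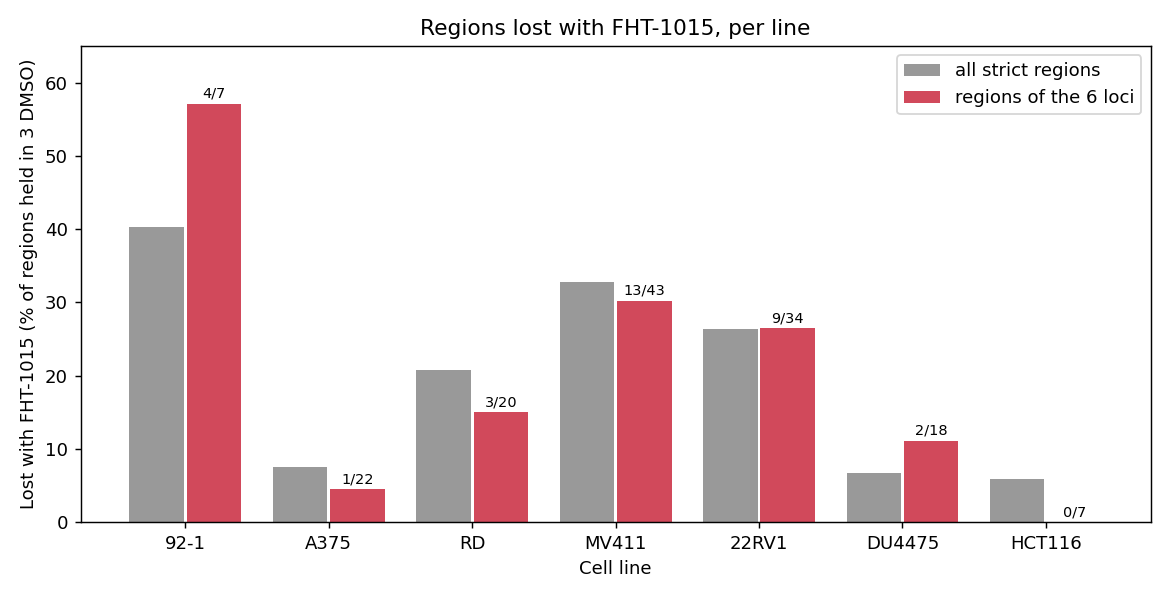
Percentage of regions held in all 3 DMSO samples that had a strict peak in 0 FHT-1015 samples, per line. Red bars are the regions of the 6 loci, with their counts, and grey bars all strict regions of the line. MV411 lost 13 of 43 and HCT116 0 of 7.

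An exact test of each region, stratified by line, called none of the 244 regions. It called 0.00127% of all 315190 regions less often open with FHT-1015, and 0 more often. At an unadjusted p under 0.05 there were 6 of the 244 (2.46%), all less often open, beside 2.82% of all regions less often open at that level. The 6 are given as a description. The smallest p, 0.0010 (adjusted 0.44), was at chr1:170562933-170563432, at the far edge of the PRRX1 window. That region had a strict peak in 9 DMSO samples of 5 lines and in 0 FHT-1015 samples. It was lost in A375, with −log10 q of 17.1, 6.36 and 6.19 against 1.85, 2.43 and 2.37. Inside PRRX1, chr1:170689502-170690001 had a strict peak in 13 DMSO and 5 FHT-1015 samples (exact p = 0.0095). It was held with DMSO in MV411, 22RV1 and DU4475 and lost in DU4475.

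Beyond the ZEB2 start, chr2:144559604-144560103, inside the non-coding gene LINC01412, had 7 DMSO and 0 FHT-1015 samples (exact p = 0.0040), and 22RV1 lost it, with −log10 q of 5.82, 8.38 and 9.54 with DMSO and no listed peak with FHT-1015. At TWIST1, chr7:19210924-19211423, 93.5 kb away, had 5 DMSO and 0 FHT-1015 samples (exact p = 0.020) and was lost in 22RV1. At VIM, chr10:17206366-17206865, 21.6 kb away, had 5 DMSO samples, all from 92-1 and A375, and 0 FHT-1015 samples (exact p = 0.020). It was lost in 92-1. The sixth, the region beside SNAI2 at chr8:48923314-48923813 described above, had an exact p of 0.040.

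Regions open in 1 line only were common. Of 44 regions held with DMSO in 1 line and found in no other DMSO sample, 21 were lost (47.7%), beside 49.6% of all such regions. In 92-1 a pair of such regions flanked SNAI2, chr8:48911355-48911854 and chr8:48933745-48934244, and both were lost. At the latter −log10 q was 52.8, 7.21 and 9.68 with DMSO, and only FHT-1015 replicate 1 listed a peak, at 2.09. Also lost in 92-1 was chr10:17277551-17278050, 40.2 kb past VIM. As replicates 2 and 3 of 92-1 with FHT-1015 were shallow, the loss in this line rests on replicate 1. Without those 2 samples the same number, 4 of 7, was lost in 92-1, beside 40.7% of all regions. In 22RV1, chr10:31401247-31401746, inside ZEB1, was lost, while chr10:31468173-31468672, also inside ZEB1, had a strict peak in all 3 FHT-1015 samples of 22RV1 and in 2 of MV411.

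The loci whose counts among the 20000 strongest peaks ran most like those of each member over the 42 samples, at least 1 Mb away, were KCNE1 and CDCP1 for ZEB1 (Pearson's r = 0.75 and 0.74), CCDC148 and DNASE2B for ZEB2 (0.74 and 0.74) and GRIN2B and CTNND1 for SNAI2 (0.68 and 0.66). They were ZBTB16 and ARRDC4 for TWIST1 (0.80 and 0.80), SLC19A2 and THEM4 for PRRX1 (0.77 and 0.76) and CHD1 and MAT2B for VIM (0.80 and 0.77). These are the highest correlations over all loci, among libraries that share line and depth, and describe only likeness of pattern.

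Among other genes of the programme, counted in the same equal-length lists over the 7 lines, 13 of 15 further regulators of the transition were tested. Over all loci 39.0% were called, 5478 of 17274 higher and 1263 lower, and the counts of each list are to be read beside that. Of the 13 regulators 5 rose and 2 fell, with a median of 0.21 beside 0.14 over all loci. SNAI1, the paralog of SNAI2, rose by 0.81 and TCF3, an E-protein, by 0.67. SOX9 fell by 0.59 and FOXC1 by 0.38. Of 13 tested genes of the TGF-beta pathway, a main inducer of the transition, 1 rose and 2 fell (median 0.09). ENG, a co-receptor, rose by 0.52, and the ligand gene TGFB2 fell by 0.42. The values of TGFB1 (0.27) and SMAD7 (-0.29) did not pass. Of 20 tested structural and matrix genes 1 rose and 5 fell (median -0.12). TNC, a matrix glycoprotein, fell by 0.94, the cadherin genes CDH11 and CDH2 by 0.56 and 0.53, and FN1, fibronectin, by 0.37. TAGLN, an actin-binding protein of smooth muscle, rose by 0.32, and COL1A1 (0.40) and ACTA2 (0.33) did not pass. Of 16 epithelial genes 7 rose and 1 fell (median 0.30), among them CLDN7, a tight junction gene, by 0.81 and OVOL1, a repressor of mesenchymal genes, by 0.67, while GRHL2 fell by 0.46. In the carcinoma contrast in DMSO 0 genes of these 4 lists passed. These directions are relative to lists of equal length: in strict peaks the mean over samples was lower with FHT-1015 at 62 of the 62 genes tested.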

How the data were processed

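ATAC-seq libraries were prepared by the original method with bead size selection on both sides, per the labels' protocols. Bowtie2, Picard, MACS2, limma and HOMER and the build hg38 are named in the submitters' processing notes, with no role or version. Other upstream settings: not given in the sources used here. Each sample had its own peak list, so replicates were not pooled. The fold enrichment of a peak is the authors' ratio of its signal to background. The authors gave its p-value and q-value as −log10, and their score column was left unused. Peak values ranked and filtered peaks within their own list and went into the thinning. Where values of several samples stand side by side they are the authors', depend on each list's depth, and were not tested.

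Summits on chromosomes 1 to 22 and X were assigned to genes with 100 kb on each side (RefSeq, GRCh38.p14). The gene table gives no strand, so distances at SNAI2 and TWIST1 are to either gene end. The main fit used limma 3.58.1 in R 4.3.3 on log2(peaks + 1) among the 20000 strongest peaks (by −log10 p), with 14 groups, 3 replicates each, loci with a mean of at least 1 peak, and Benjamini-Hochberg adjustment over all loci. Calls had adjusted p below 0.05. Regions (500 bp, overlap of 100 bp, −log10 q of at least 5) were tested by an exact permutation of treatments within lines. Thinned lists kept peaks whose −log10 p was still at least 5 after the pileup solved from fold and p was scaled down to the lowest background in the line. Scripts were in Python 3.11.15 and were tested on simulated data with known changes.

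The 6 genes and all lists were chosen with earlier results of these data known. Named in the text are all 6 genes and, per locus, the regions at the gene start, up to 3 lost regions, up to 2 held in most lines, up to 2 held in 1 line only, the 2 loci most like it, and the extremes of each list. The remaining regions at an unadjusted p under 0.05, and the genes CDH2, FN1 and TAGLN, were named after their values were seen. Replicate numbers were not used as pairs: over 21 same-numbered pairs the correlation of deviations from the group means ran from -0.06 to 0.14. These were equal-length counts, which take out list length, so a shared depth would be missed. In 92-1 the strict totals fell in the same order with DMSO (66350, 25397 and 14266) and with FHT-1015 (20254, 2037 and 1412). Labels call the replicates biological, and p-values measure the spread between them.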

Additional observations from a re-analysis of the deposited data

Results flagged for a closer look

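The effect of FHT-1015 on peaks among the 20000 strongest differed between lines at 3 of the 5 tested loci, by a test of the difference itself (limma F-test over lines, Benjamini-Hochberg adjusted). At SNAI2 the log2 effects spanned 2.41, from -1.02 in 92-1 to 1.39 in MV411 (adjusted p = 0.0027). At PRRX1 they spanned 2.45, from -1.04 in DU4475 to 1.41 in 92-1 (adjusted p = 0.0081). At VIM they spanned 2.17, from -1.06 in 92-1 to 1.11 in A375 (adjusted p = 0.010). Without 92-1 the spans were 1.77 at SNAI2 (adjusted p = 0.0021), 1.38 at PRRX1 (0.10) and 1.497 at VIM (0.040). Groups of 3 samples are too small for a search for single samples far from the rest.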

How the results depend on the processing

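The log2 effect over the 7 lines changed its sign or its side of the threshold under some alternatives, and the cause was not tested beyond their construction. It became 0.048 at ZEB1 with the 10000 strongest peaks, 0.022 at ZEB1 and -0.062 at ZEB2 with the 50000 strongest, -0.57 at ZEB1, -0.88 at ZEB2, -0.83 at SNAI2, -1.09 at PRRX1 and -0.39 at VIM in strict peaks. It was 0.39 at ZEB1, 0.12 at SNAI2 and 0.56 at VIM in strict peaks scaled to their total, -0.36 at ZEB1, -0.80 at ZEB2, -0.46 at SNAI2, -0.89 at PRRX1 and -0.13 at VIM in thinned lists, -0.53 at ZEB1, -0.90 at ZEB2, -0.82 at SNAI2, -1.03 at PRRX1 and -0.48 at VIM in strict intervals counted once. It was -0.47 at ZEB1, -0.82 at ZEB2, -0.61 at SNAI2, -0.97 at PRRX1 and -0.092 at VIM in strict peaks without 92-1, -0.47 at ZEB1, -0.72 at ZEB2, -0.61 at SNAI2, -0.90 at PRRX1 and -0.20 at VIM in strict peaks without the shallow 92-1 samples, -0.31 at ZEB2, 0.050 at SNAI2 and -0.035 at VIM in all peaks scaled to their total. It was 0.19 at SNAI2 with a window of 5 kb, 0.035 at SNAI2 and -0.019 at VIM with a pseudocount of 0.5, 0.16 at SNAI2 and -0.37 at PRRX1 without 92-1. It was 0.12 at SNAI2 without the shallow 92-1 samples, -0.18 at VIM with intervals counted once. Leaving out 1 sample at a time gave -0.15 to -0.034 at ZEB1, 0.090 to 0.20 at ZEB2, -0.074 to 0.037 at SNAI2, -0.18 to -0.048 at PRRX1 and -0.058 to 0.038 at VIM, with no call. With the replicate number as a block the values were unchanged and none passed (-0.12 at PRRX1, adjusted p = 0.53), though whether equal numbers mark pairs is not known. A permutation test within lines (100000 draws, two-sided) gave p between 0.19 and 0.98 at the 5 tested loci and 0.033 at TWIST1. 

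The carcinoma contrast in DMSO gave no call under any alternative run. Its sign changed as follows. It was -0.14 at ZEB2 and 0.082 at SNAI2 with the 10000 strongest peaks, 0.25 at SNAI2 with the 50000 strongest, 0.45 at SNAI2 in strict peaks. It was 0.24 at SNAI2 in strict peaks scaled to their total, 0.31 at SNAI2 without MV411, 0.025 at SNAI2 without RD. It was 0.045 at SNAI2 without 22RV1, 0.34 at SNAI2 and 0.061 at PRRX1 in strict intervals counted once. Leaving out 1 sample gave -0.84 to -0.67 at ZEB1, 0.39 to 0.52 at ZEB2, -0.18 to -0.037 at SNAI2, -0.60 to -0.45 at PRRX1 and 0.64 to 0.80 at VIM. Single-line values that changed sign were these. In 92-1 the value was -1.23 at ZEB2 and -1.80 at PRRX1 in strict peaks, -0.32 at ZEB2, 0.33 at SNAI2 and 0.074 at VIM in all peaks scaled to their total, -1.23 at ZEB2 and -1.76 at PRRX1 in strict intervals counted once. It was -0.18 at ZEB2 and -0.46 at PRRX1 in strict peaks without the shallow 92-1 samples, 0.71 at SNAI2 and 0.70 at VIM in strict peaks scaled to their total, 0.19 at VIM with a window of 5 kb. In MV411 the value was -0.95 at SNAI2 in strict peaks, -0.14 at SNAI2 in all peaks scaled to their total, -0.18 at SNAI2 in thinned lists. It was -0.90 at SNAI2 in strict intervals counted once. In A375 the value was -0.11 at VIM in strict intervals counted once. 

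Lost regions numbered 49 with all deposited peaks, 19 when 250 bp had to overlap and 20 after thinning, and 47 to 63 without 1 replicate number. Gained regions numbered 2 at −log10 q of at least 10, 5 with all deposited peaks, 1 when 250 bp had to overlap, 1 after thinning, 2 without the shallow 92-1 samples and 3 to 4 without 1 replicate number. Fewer samples make either easier to reach. Interval counts, separation in thinned lists, strict peaks without 92-1 and the omission of the shallow samples were chosen after seeing the data. The lists hold no reads, so peak number and depth cannot be told apart within a sample, and a count near 0 limits what a change at TWIST1 can show.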
